A study of Mus musculus with 6 samples.

Results

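The genes described here are 10 components of Toll-like receptor sensing in germinal centre B cells, listed by name: the receptor genes Tlr1, Tlr4, Tlr6, Tlr7 and Tlr9, the receptor-like gene Cd180 (RP105) with its partner Ly86 (MD-1), the chaperone gene Unc93b1, the adaptor gene Myd88 and the kinase gene Irak4. All 10 were among the 15861 genes of the count table and among the 10926 that passed the filter on low counts. Polyadenylated RNA came from B220+ GL7+ FAS+ cells sorted from C57BL/6 mice, 1 mouse per library. The KO group (n = 3) carried floxed Lsd1 alleles (Lsd1 f/f) and a heterozygous Cre allele labelled Cgamma-cre, whose driver the labels do not describe, and the WT group (n = 3) was Lsd1 f/f without Cre, so that the controls were floxed as well. The series design calls the animals littermates. No mouse with Cre and unfloxed Lsd1 was analysed here, so effects of Cre and of the deletion cannot be told apart. The labels give no age or immunisation.

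Toll-like receptors recognise microbial molecules and let B cells combine such a signal with that of their antigen receptor. TLR1 and TLR6 each pair with TLR2 on the cell surface to bind lipopeptides, TLR4 binds lipopolysaccharide together with MD-2, and the RP105 and MD-1 pair resembles the TLR4 and MD-2 pair but has no intracellular signalling domain. TLR7 and TLR9 detect single-stranded RNA and unmethylated CpG DNA in endosomes, to which UNC93B1 carries them. All the receptors named except RP105 signal through the adaptor MyD88, which recruits the kinase IRAK4.

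The KO libraries held 12.3, 14.3 and 13.1 M counts and the WT libraries 3.79, 5.52 and 3.39 M counts, so every KO library was the deeper and depth and genotype cannot be told apart. Kdm1a, the gene of LSD1, stood at 81.9, 33.0 and 21.8 CPM (counts as a share of the library size, which was normalised by TMM) in KO and at 134, 85.2 and 92.6 CPM in WT. It did not pass over all genes (edgeR adjusted p = 0.393), and the library labelled KO 1 lay close to the lowest WT library. Statements on the KO group include that library unless said otherwise. The markers of the sorted cells were present, as S1pr2, which encodes a receptor that keeps B cells in the germinal centre (372 to 512 CPM in KO and 412 to 641 CPM in WT), and Cd22, a B cell inhibitory receptor gene (786 to 1050 CPM in KO and 857 to 1055 CPM in WT), show, whereas the germinal centre marker Mef2b had at most 6 counts in any library. These 3 marker genes were named after their values were seen, and they do not show that the sorted cells were alike. Of the 9 germinal centre markers tested, 7 had a log2 fold change (KO over WT) below 0 and 2 above (median -0.13). Of the 8 pan B cell markers, 6 were below 0 and 2 above (median -0.18). None of either list passed over all genes. At an unadjusted p under 0.05 (edgeR), 2 pan B cell markers and 1 germinal centre marker were lower in KO and 0 of either list higher. Of all genes, 12.6% had such a p in either direction. The groups did not overlap for 3 of the pan B cell markers, 1 of them higher in KO, and for 0 of the germinal centre markers, where 18% of all genes were free of overlap. Transcripts of macrophages, cells that use several of the same receptors, differed widely: 14 markers, none at 0 in any library, summed to 214, 204 and 2665 CPM in KO and to 341, 1352 and 2761 CPM in WT.

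All 10 are protein-coding genes, and GENCODE M21 (mm10) places Tlr4 at chr4:66827584-66930284, Tlr9 at chr9:106222598-106226883, Cd180 at chr13:102693558-102739629, Ly86 at chr13:37345208-37419036, Unc93b1 at chr19:3935186-3949340 and Irak4 at chr15:94543643-94581815 on the plus strand. On the minus strand lie Tlr1 at chr5:64924679-64933563, Tlr6 at chr5:64952031-64960097, Tlr7 at chrX:167304929-167330558 and Myd88 at chr9:119335934-119341411. Tlr1 and Tlr6 are neighbouring paralogues, and part of their coding sequence is identical. Of all windows of 50 bases in the longest Tlr1 transcript, 15.3% also occurred in Tlr6, and of windows of 100 bases 8.85% did. In Tlr6, 12.6% of windows of 50 bases were shared with another gene, nearly always Tlr1. The longest common stretch had 229 bases and lies in a coding exon of both genes. It is shown because reads that fall wholly inside it cannot be assigned to either gene, which bears on the counts of both. It was read from the GENCODE M21 transcripts (mm10), 5′ to 3′ on the minus strand, at chr5:64925525-64925777 for Tlr1 and chr5:64953816-64954068 for Tlr6. Capitals mark the identical bases, and lower case the 12 transcript bases on each side.
Tlr1: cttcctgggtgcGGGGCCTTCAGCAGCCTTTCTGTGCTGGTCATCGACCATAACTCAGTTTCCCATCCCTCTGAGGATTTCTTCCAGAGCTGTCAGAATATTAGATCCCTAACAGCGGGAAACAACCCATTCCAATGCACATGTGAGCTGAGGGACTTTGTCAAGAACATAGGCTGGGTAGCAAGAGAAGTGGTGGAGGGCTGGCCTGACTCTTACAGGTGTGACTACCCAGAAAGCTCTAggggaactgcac
Tlr6: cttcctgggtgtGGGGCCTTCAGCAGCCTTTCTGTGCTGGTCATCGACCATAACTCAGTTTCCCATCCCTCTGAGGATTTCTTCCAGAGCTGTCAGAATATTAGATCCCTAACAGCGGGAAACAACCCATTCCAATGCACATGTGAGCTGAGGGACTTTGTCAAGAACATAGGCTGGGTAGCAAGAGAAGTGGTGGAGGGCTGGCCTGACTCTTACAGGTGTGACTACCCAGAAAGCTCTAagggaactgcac
For Tlr4, Tlr7, Tlr9, Cd180, Ly86 and Unc93b1, the 1 transcript of each that was searched shared no window of 50 bases with an annotated transcript of another gene. Myd88 overlaps exons of Acaa1a on the other strand by 290 bases, Irak4 overlaps Twf1 on the other strand by 395 bases and shares windows with Gm4887 as well, and Cd180 overlaps Mast4 on the other strand by 182 bases. The strand setting of the counting is not given in the sources used here, so reads from those overlaps cannot be assigned with certainty.

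The comparison of KO with WT asks whether transcripts of this sensing system differ in germinal centre B cells with the conditional Lsd1 deletion. None of the 10 genes passed over all genes tested (edgeR quasi-likelihood test, adjusted p from 0.593 to 0.961), where 0.0824% of all 10926 genes passed. None had an unadjusted p under 0.05, against 12.6% of all genes, and for none were the 3 KO and 3 WT libraries free of overlap, against 18% of all genes. DESeq2, limma-voom with and without quality weights, and the fits that left out 1 library each, including the fit without KO 1, called 0 of the 10 as well. The median log2 fold change of the 10 was 0.16, beside 0.013 over all tested genes, with 7 of 10 above 0. These misses do not show that the levels were alike, and the 95% intervals below give the differences that remain possible.

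**Figure D1:**
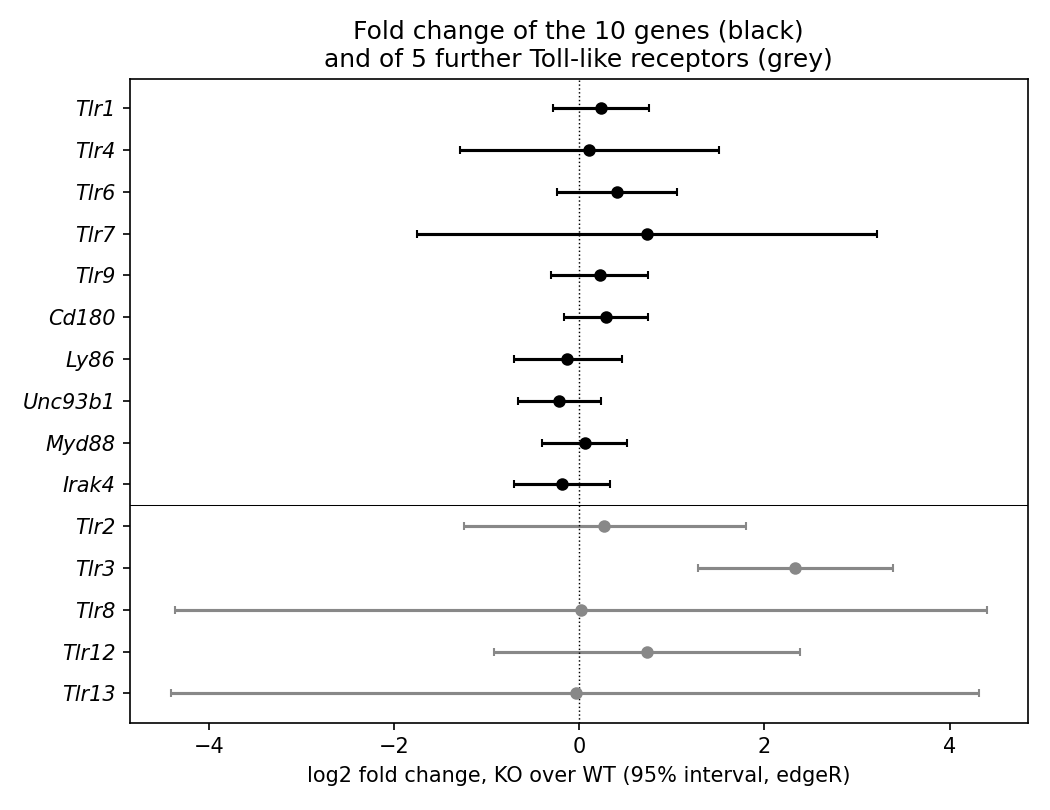
Log2 fold change (KO over WT, horizontal axis) with 95% interval from edgeR for the 10 genes (black) and for the 5 further Toll-like receptor genes that were tested (grey), one gene per row. The intervals of all 10 genes cross 0. That of Unc93b1 (-0.66 to 0.23) is narrow and that of Tlr7 (-1.75 to 3.22) is wide. The interval of Tlr3 (1.28 to 3.39) does not cross 0.

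Among the surface receptors of lipopeptides, Tlr1 stood at 83.6, 82.6 and 93.1 CPM in KO and at 51.7, 94.4 and 73.6 CPM in WT. The KO libraries lay close together and inside the WT range, with WT 1 the lowest library. Its log2 fold change was 0.24 (standard error 0.23, 95% interval -0.28 to 0.75, edgeR adjusted p = 0.722). Tlr6, which encodes the alternative partner of TLR2, stood at 13.6, 15.7 and 16.9 CPM in KO and at 8.67, 15.1 and 10.9 CPM in WT. WT 1 and WT 3 were below every KO library, and WT 2 was within the KO range. For Tlr6 the log2 fold change was 0.41 (standard error 0.30, 95% interval -0.24 to 1.06, edgeR adjusted p = 0.594). Without WT 2 it was 0.657, with an adjusted p still above the threshold. Per exon length, Tlr1 exceeded Tlr6 by 6.85, 5.84 and 6.12 times in the KO libraries and by 6.65, 6.99 and 7.51 times in the WT libraries. The groups overlapped in this ratio, while Tlr1 itself differed by up to 1.82 times between libraries.

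The shared partner of these receptors was scarcer than Tlr1. Tlr2 stood at 4.78, 2.89 and 12.2 CPM in KO and at 1.58, 6.25 and 8.73 CPM in WT. Per exon length it averaged 2.20 ± 1.64 CPM per kilobase in KO and 1.83 ± 1.21 in WT (SD, n = 3 each), beside 25.8 ± 1.74 in KO and 21.9 ± 6.38 in WT for Tlr1. The highest Tlr2 level of each group was in KO 3 and in WT 3, the libraries with the highest macrophage marker sum of their groups. The part of macrophage RNA in Tlr2 was not tested.

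Tlr4, the lipopolysaccharide receptor gene, stood at 22.9, 26.8 and 51.0 CPM in KO and at 12.1, 55.3 and 24.9 CPM in WT. A single library in each group, KO 3 and WT 2, stood above 50 CPM, and the groups overlapped. The log2 fold change was 0.11 (standard error 0.58, 95% interval -1.29 to 1.51, edgeR adjusted p = 0.961), and its sign turned with the libraries used: it was -0.325 without KO 3, -0.27 without WT 1 and -0.023 without WT 3, and 0.865 without WT 2. The within-group SD of Tlr4 on the log2 scale was 0.88, larger than that of 93.1% of tested genes. Ly96, which encodes the MD-2 subunit that binds lipopolysaccharide, averaged 10.2 ± 1.63 CPM in KO and 10.1 ± 5.01 CPM in WT (SD, n = 3 each, log2 fold change 0.01, standard error 0.39). Cd14, whose protein passes lipopolysaccharide to that complex, stood at 1.44, 1.48 and 17.9 CPM in KO and at 0.788, 11.1 and 22.4 CPM in WT. It was thus low in the same 3 libraries whose macrophage marker sum was lowest, KO 1, KO 2 and WT 1.

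Cd180 and Ly86 encode the parts of one surface complex, and both were among the more abundant transcripts. Cd180 stood at 418, 330 and 431 CPM in KO and at 287, 381 and 299 CPM in WT. KO 1 and KO 3 were above all WT libraries, while KO 2 was below WT 2. The log2 fold change was 0.29 (standard error 0.21, 95% interval -0.17 to 0.74, edgeR adjusted p = 0.593), and over 16 alternative settings it ran from 0.196 to 0.423. Ly86 stood at 246, 286 and 238 CPM in KO and at 174, 386 and 278 CPM in WT. Its lowest and highest libraries were both WT. A log2 fold change of -0.13 (standard error 0.27, 95% interval -0.71 to 0.46, edgeR adjusted p = 0.898) was obtained, against 0.004 when scaled by library size alone, and 0.181 without WT 2. The ratio of Cd180 to Ly86 per exon length was 1.37, 0.932 and 1.46 in KO and 1.33, 0.794 and 0.865 in WT. WT 1 thus resembled KO 1 and KO 3 in this ratio, and KO 2 lay nearest to WT 3.

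The endosomal receptors differed in how evenly they were expressed. Tlr9, the CpG DNA receptor gene, stood at 93.9, 55.8 and 89.8 CPM in KO and at 80.4, 60.8 and 65.1 CPM in WT. The highest and the lowest library were both KO. With all libraries the log2 fold change was 0.22 (standard error 0.24, 95% interval -0.31 to 0.74, edgeR adjusted p = 0.759), and it was 0.074 without KO 1.

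Tlr7, the gene of the single-stranded RNA receptor, was the least even of the 10. It stood at 26.4, 5.01 and 26.2 CPM in KO and at 1.84, 20.3 and 12.2 CPM in WT. Each group held a library far below its others, KO 2 and WT 1. The value of WT 1 rests on 7 counts, with an exact 95% Poisson interval of 0.739 to 3.79 CPM, and that of KO 2 on 71 counts, with an interval of 3.91 to 6.32 CPM. Both intervals cover counting error only, and both lie below the intervals of the other 4 libraries, of which the lowest starts at 8.64 CPM. The highest library exceeded the lowest by 14.4 times, and the within-group SD of 1.56 on the log2 scale was larger than that of 97.8% of tested genes. The log2 fold change was 0.73 (standard error 0.98, 95% interval -1.75 to 3.22, edgeR adjusted p = 0.817). It was 0.22 without WT 1, 1.47 without WT 2, 0.436 without KO 1 and 0.423 without KO 3. Differences in Tlr7 anywhere inside this interval remain compatible with these libraries.

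Tlr7 and Tlr4 can be set beside the receptor genes Tlr8 and Tlr13, which are typical of myeloid cells. Tlr8 stood at 0.608, 0.635 and 14.9 CPM in KO and at 0.263, 9.58 and 5.92 CPM in WT. Tlr13, the receptor gene for bacterial ribosomal RNA, stood at 0.228, 1.13 and 13.5 CPM in KO and at 0.263, 8.41 and 6.55 CPM in WT. Both were high in KO 3, WT 2 and WT 3 and low in the other 3 libraries, the same division as that of the macrophage marker sum. Tlr7 departed from this division in 1 library: in KO 1 it stood at 26.4 CPM with a macrophage marker sum of 214 CPM, and in KO 3 at 26.2 CPM with a sum of 2665 CPM. Tlr4 in WT 3, where the sum was 2761 CPM, stood at 24.9 CPM, between its values in KO 1 and KO 2. The part of macrophage RNA in Tlr7 and Tlr4 was not tested. In sorted bulk samples fewer cells of a type and less RNA per cell cannot be told apart.

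**Figure D2:**
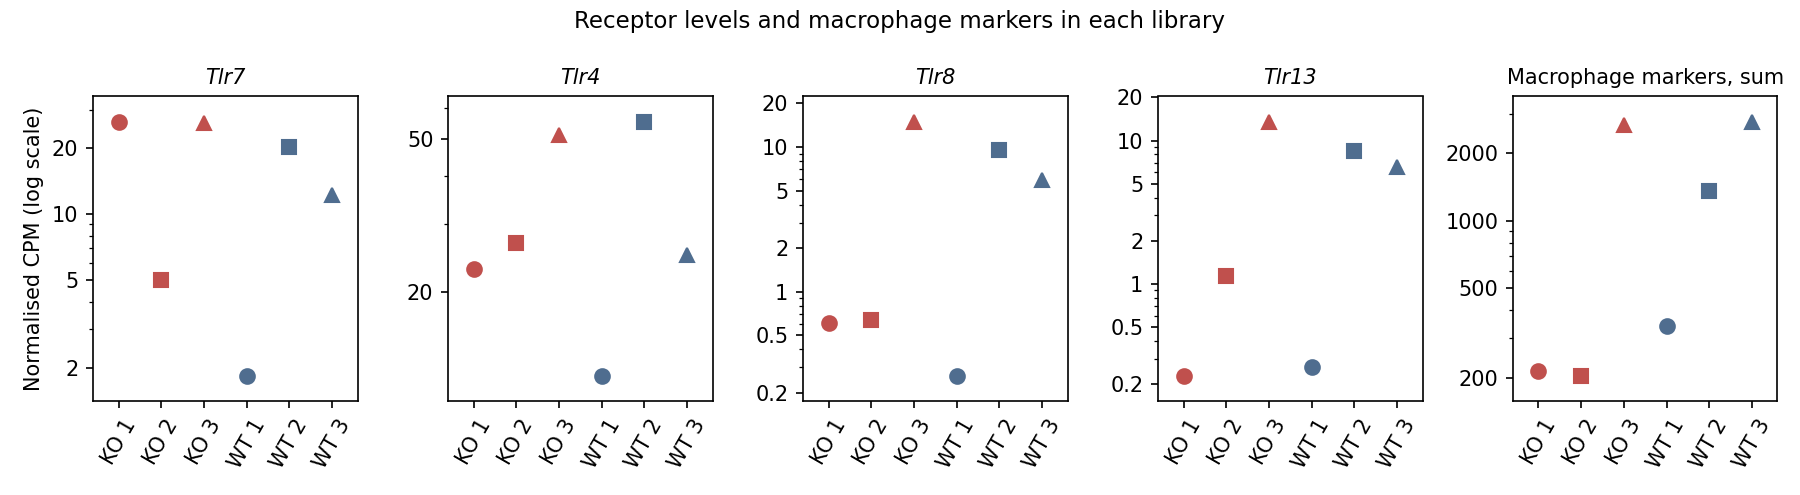
Normalised CPM (vertical axes, log scale, a separate range for each panel) of Tlr7, Tlr4, Tlr8, Tlr13 and the sum of 14 macrophage markers in each library, KO red and WT blue. Tlr8, Tlr13 and the marker sum are high in KO 3, WT 2 and WT 3, while Tlr7 is also high in KO 1 (26.4 CPM).

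Unc93b1, which encodes the chaperone that delivers TLR7 and TLR9 to endosomes, stood at 555, 514 and 567 CPM in KO and at 583, 556 and 762 CPM in WT. WT 3 stood above the other 5 libraries, which spanned a narrow range. The log2 fold change was -0.22 (standard error 0.20, 95% interval -0.66 to 0.23, edgeR adjusted p = 0.706), and -0.066 without WT 3. Its within-group SD, 0.18 on the log2 scale, was the smallest of the 10 and larger than that of 13% of tested genes. The chaperone exceeded Tlr9 per exon length by 6.78, 10.6 and 7.25 times in KO and by 8.32, 10.5 and 13.4 times in WT.

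Downstream of the receptors, Myd88 stood at 73.9, 100 and 79.0 CPM in KO and at 89.6, 68.4 and 85.1 CPM in WT. The lowest library was WT 2 and the highest KO 2, with the rest between them. Its log2 fold change was 0.06 (standard error 0.21, 95% interval -0.40 to 0.52, edgeR adjusted p = 0.943), and it lay below 0 with quality weights (-0.03), without WT 2 (-0.05) and without KO 2 (-0.077). Irak4 stood at 25.7, 35.9 and 33.4 CPM in KO and at 31.3, 32.8 and 44.3 CPM in WT. KO 1 was the lowest and WT 3 the highest library. Its log2 fold change was -0.19 (standard error 0.23, 95% interval -0.70 to 0.33, edgeR adjusted p = 0.794), and -0.022 without WT 3. The ratio of Myd88 to Irak4 per exon length averaged 5.22 ± 0.535 in KO and 4.46 ± 0.983 in WT (SD, n = 3 each).

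Levels between the genes were compared per exon length, in normalised CPM per kilobase. By this measure Unc93b1 was the highest of the 10, at 180 ± 9.32 in KO and 209 ± 36.8 in WT. These levels were above 97.8% of tested genes in KO and 97.7% in WT. Cd180 followed at 87.2 ± 12.1 in KO and 71.4 ± 11.3 in WT, and Ly86 at 70.6 ± 7.03 in KO and 77.0 ± 29.2 in WT. The ranges of these 2 genes overlapped in both groups, so this measure did not settle their order. Myd88 stood at 32.8 ± 5.44 in KO and 31.5 ± 4.33 in WT, and Tlr9 at 23.0 ± 6.02 in KO and 19.8 ± 2.95 in WT (SD, n = 3 each). Tlr1 and Tlr9 overlapped in both groups, and Tlr1 and Myd88 overlapped in WT. Tlr9 was separated from Irak4, the next gene, in both groups. The lower tier held Irak4 at 6.31 ± 1.06 in KO and 7.19 ± 1.41 in WT, Tlr4 at 6.04 ± 2.73 in KO and 5.54 ± 4.0 in WT, Tlr7 at 4.71 ± 3.02 in KO and 2.80 ± 2.27 in WT, and Tlr6 at 4.14 ± 0.455 in KO and 3.10 ± 0.869 in WT. Neighbours within this tier overlapped in both groups. Exon lengths were those of all annotated exons joined, so genes with rarely used exons are given lower levels than their main transcript would have. For Ly86 the joined exons had 3632 bases and the longest protein-coding transcript 1134. For Cd180 these lengths were 4509 and 2650, and for Unc93b1 3031 and 2266. The order of Unc93b1, Cd180 and Ly86 thus depends on the length used, and levels per transcript length were not computed.

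**Figure D3:**
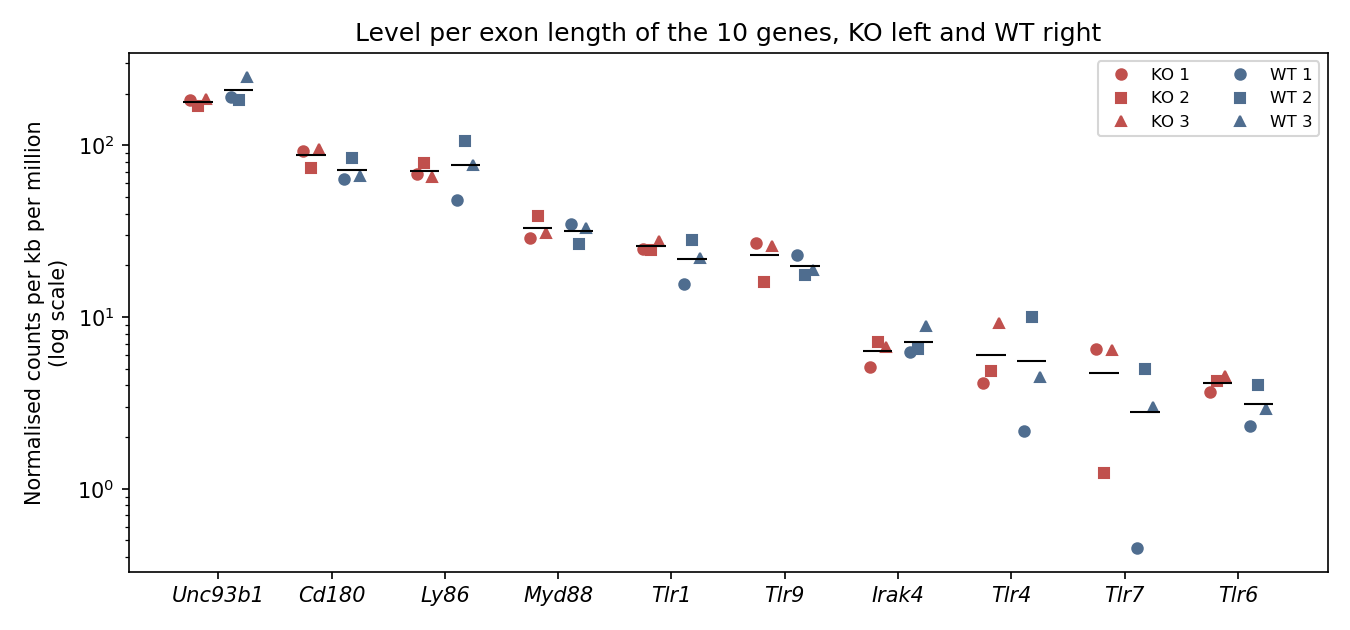
Level of each of the 10 genes in normalised CPM per kilobase of exon (vertical axis, log scale), with KO libraries (red) left of WT libraries (blue), 1 point per library and a bar at each mean. Unc93b1 lies highest, Tlr6 and Tlr7 lowest, and the spread is widest for Tlr7 and Tlr4.

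Genes of like profile were sought for 3 of the 10, by the root mean square difference of centred log2 CPM over the 6 libraries among 9308 other genes. For Tlr9 they were Camta2 (0.061), the chromatin remodelling gene Arid2 (0.069) and the chromatin gene Ep400 (0.073). For Cd180 they were Gas2l3 (0.055), Zkscan1 (0.057) and the ubiquitin ligase gene Fbxw7 (0.062). For Tlr7 they were the glutamate transporter gene Slc1a3 (0.354), the inhibitory receptor gene Lilrb4a (0.399) and Gbp8 (0.431), of which the counts were low, with 4, 3 and 5 counts in WT 1. Over 6 libraries such likeness is a description, and libraries share their depth and cell makeup across genes.

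The other receptors and surface cofactors were 12 genes, 9 of them tested, and none passed (median log2 fold change 0.02, with 6 above 0 and 3 below). Tlr5, Tlr11 and Lbp were too low to test, with at most 9 counts in any library. The groups did not overlap for 2 of the 9, Tlr3 and Cd36, both higher in KO, where 10% of all genes were free of overlap and higher in KO. Tlr3, which encodes the endosomal receptor of double-stranded RNA that signals through TRIF and not through MyD88, stood at 11.9, 7.62 and 11.9 CPM in KO (157, 108 and 166 counts) and at 0.788, 3.13 and 2.18 CPM in WT (3, 16 and 7 counts). The lowest KO library was above the highest WT library. The fitted log2 fold change was 2.33 (standard error 0.48, 95% interval 1.28 to 3.39), and it missed the threshold (edgeR adjusted p = 0.122). It passed with no filter on low counts (edgeR adjusted p = 0.0104), with DESeq2 (adjusted p = 0.0127) and with limma-voom quality weights (adjusted p = 0.0268), and over the 16 alternatives the adjusted p ran from 0.0104 to 0.635 and the log2 fold change from 1.94 to 2.83. Without KO 1 the log2 fold change was 2.22. Tlr3 shares 381 exon bases with the antisense gene Gm45542, whose reads cannot be told apart without strand.

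Cd36, which encodes a scavenger receptor that assists TLR2 and TLR6, stood at 118, 78.0 and 83.4 CPM in KO and at 12.1, 61.4 and 17.8 CPM in WT. WT 2 came near to the KO libraries, and the other WT libraries stood far below them. The log2 fold change was 1.59 (standard error 0.61, edgeR adjusted p = 0.375), and it passed with DESeq2 (adjusted p = 0.0408) and with quality weights (adjusted p = 0.0254), within a range of 0.0254 to 0.953 over 16 alternatives. Without WT 2 the log2 fold change was 2.65. Markers of naive and memory B cells were higher in KO as well: 10 of 10 were read, none at 0, and they summed to 802, 591 and 634 CPM in KO and to 297, 538 and 400 CPM in WT. All 10 had a log2 fold change above 0 (median 1.33), where 51.3% of all genes did. At an unadjusted p under 0.05 (edgeR), 6 of the 10 were higher in KO, where 7.1% of all genes were. Zbtb32, named after its values were seen, passed over all genes (edgeR adjusted p = 0.0348), where 0.0824% of all genes passed. The 8 dendritic cell markers summed to 118, 148 and 142 CPM in KO and to 59.6, 77.8 and 77.6 CPM in WT, most of it Flt3, and Cd209a was at 0 in 5 libraries. Only 2 of the 8, Flt3 and Itgax, passed the filter on low counts. Itgax stood at 28.1, 0.847 and 7.86 CPM in KO and at 0.788, 1.95 and 4.99 CPM in WT. The part of such cells in Tlr3 and Cd36 was not tested. Sigirr, an inhibitor of the receptor family, had a log2 fold change of -0.31 (standard error 0.24), and Cd14 one of -0.71 (standard error 1.52).

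The 16 genes for chaperones, trafficking and processing of the endosomal receptors were all tested and none passed (edgeR, also none with DESeq2 or limma-voom and none at an unadjusted p under 0.05, median log2 fold change -0.16, with 4 above 0 and 12 below). Hsp90b1, the endoplasmic reticulum chaperone of most Toll-like receptors, stood at 1105, 400 and 523 CPM in KO and at 241, 571 and 416 CPM in WT. The value of KO 1 stood far above the rest, and the log2 fold change was 0.72 (standard error 0.45) with it and 0.168 without it. Pld4, an endolysosomal nuclease gene, had a log2 fold change of 0.25 (standard error 0.25). Ctsl, which encodes a lysosomal protease that cleaves TLR9, stood at 3.72, 3.25 and 19.1 CPM in KO and at 22.3, 10.8 and 17.5 CPM in WT. KO 1 and KO 2 were below the WT libraries, and KO 3, the KO library rich in macrophage markers, was among them. The highest library was WT 1, whose macrophage marker sum of 341 CPM was the lowest of the WT group. The log2 fold change of Ctsl was -0.95 (standard error 0.74, edgeR adjusted p = 0.647). Without KO 3 it was -2.29 and passed (edgeR adjusted p = 0.0489, the lowest of a range up to 0.978 over 16 alternatives). Pld3, a nuclease gene related to Pld4, had a log2 fold change of -0.41 (standard error 0.75). KO 1 and KO 2 were again below the WT libraries, at 37.7, 36.5 and 140 CPM in KO and 50.2, 76.8 and 159 CPM in WT. The part of macrophage RNA in Ctsl and Pld3 was not tested.

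A further list held 24 adaptors, kinases and ubiquitin ligases of Toll-like receptor signalling, of which 23 were tested. None passed, in edgeR or in any of the 16 alternatives (median log2 fold change 0.26, with 17 above 0 and 6 below). At an unadjusted p under 0.05, 2 were higher in KO (7.1% of all genes were) and 0 lower, and for 6 of 23 the groups did not overlap, each with KO higher, where 10% of all genes were free of overlap and higher in KO. Map3k7, the gene of the kinase TAK1, stood at 98.3, 93.2 and 92.1 CPM in KO and at 62.8, 79.4 and 65.1 CPM in WT. All KO libraries lay above the WT libraries, and the log2 fold change was 0.45 (standard error 0.19, 95% interval 0.03 to 0.87, edgeR adjusted p = 0.367). Tab3, which encodes an adaptor of TAK1, had a log2 fold change of 0.44 (standard error 0.36). The genes of the ubiquitin-conjugating enzyme pair used by TRAF6, Ube2v1 and Ube2n, had log2 fold changes of -0.38 (standard error 0.24) and -0.26 (standard error 0.24), with Ube2n at 0.044 without WT 2. Irak3, an inhibitory kinase-like protein gene named after its values were seen, had a log2 fold change of 1.43 (standard error 0.49, edgeR adjusted p = 0.284) at 4.40, 3.53 and 6.79 CPM in KO and 1.31, 1.95 and 2.18 CPM in WT.

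**Figure D4:**
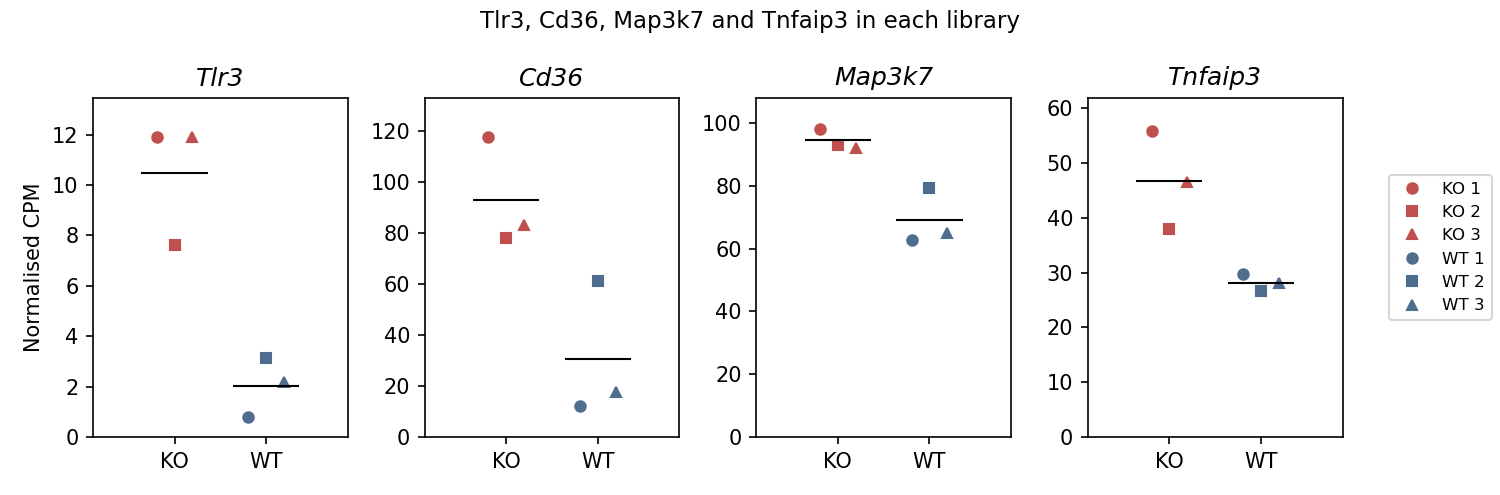
Normalised CPM (vertical axes from 0) of Tlr3, Cd36, Map3k7 and Tnfaip3 in KO (red) and WT (blue) libraries, 1 point per library with a bar at the mean. The groups do not overlap for any of the 4, and none of them passed the test over all genes (edgeR adjusted p of 0.122, 0.375, 0.367 and 0.271).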

How the data were processed

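The file the authors deposited holds raw counts for each gene symbol, with a column for each mouse. According to the submitters' processing notes the tools were CASAVA, STAR 2.5.2 and featureCounts 1.5.2, on mm10. Annotation, strand setting and the handling of reads that match several places are not stated in the sources used. For the test, edgeR 4.0.16 was run in R 4.3.3 with filterByExpr, TMM scaling and a robust quasi-likelihood fit without covariates. Its p-values are two-sided and adjusted over 10926 genes by Benjamini-Hochberg, with a threshold of 0.05. Standard errors and 95% intervals are those implied by the F statistic. A single count equalled 0.0706 to 0.0759 CPM in KO and 0.195 to 0.312 CPM in WT. No libraries of a group looked like repeats (chi-square per degree of freedom of 14.4 to 50.9). Exon lengths and overlaps came from GENCODE M21, which matched 98.4% of tested genes by symbol. Alternatives were other scalings and filters, DESeq2 1.42.0, limma 3.58.1, a replicate block, each library left out, and thinning to 3390805 counts. The tools were tested on simulated data, where edgeR recovered 23.8% of 2-fold and 72.3% of 4-fold changes. Of its calls there, 15.6% were unchanged genes. The 10 genes, lists and tests were chosen with earlier results of these data known. From each list of pathway genes, the 2 genes furthest in each direction with a mean of at least 5 CPM were named. Some genes of the marker lists are not reported here.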

Additional observations from a re-analysis of the deposited data

How the results depend on the processing

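None of the 10 genes passed in any of 16 alternatives, and the median of their log2 fold changes ran from 0.07 (without WT 1) to 0.30 (without WT 2, and with library size alone). At an unadjusted p under 0.05, Cd180 passed with quality weights and Tlr6 without WT 2. Library size alone moved the median of all genes by 0.119, the largest shift among the scalings. The count of called genes over the whole table was 9 and moved with the setting: 18 with library size alone, 93 with no filter, 122 with DESeq2, 634 with quality weights and 14 after thinning. Leaving out 1 library gave 1 (without WT 2, and without WT 3) to 24 (without KO 1), with 3 without KO 2 and 18 without KO 3. Among other receptors and cofactors 1 gene passed with no filter, 2 with DESeq2 and 2 with quality weights, and among the endosomal list 0 to 1 when 1 library was left out. Signs that turned with library size alone were those of Ly86 (0.004), Relb (0.009) and Nfkb2 (0.028), and with quality weights that of Myd88 (-0.03). When 1 library was left out, ranges that crossed 0 were -0.325 to 0.865 for Tlr4, -0.384 to 0.181 for Ly86, -0.077 to 0.136 for Myd88, -0.407 to 0.044 for Ube2n, -2.98 to 0.188 for Cd14, -1.39 to 0.163 for Pld3 and -0.527 to 0.159 for Nfkb2. The cause of these moves was not tested. No label ties equal replicate numbers to each other, and the main fit did not pair them. Deviations from the group means of same-numbered libraries correlated by 0.341, -0.0525 and 0.443. KO 1 and KO 3 correlated best with their own number, and KO 2 did not. With 3 libraries per group the deviations depend on each other, so these values cannot decide whether the samples were paired. With the replicate block 21 genes were called and none of the 10. Depth limits the lowest values, such as that of Tlr7 in WT 1, with 7 counts.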

Other observations

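Early targets of Toll-like receptor signals in B cells, most of them shared with the antigen receptor and CD40, were 18 genes, of which 15 were tested and none passed (edgeR, median log2 fold change 0.18, with 12 above 0 and 3 below). At an unadjusted p under 0.05, 2 were higher in KO (7.1% of all genes were) and 0 lower, Tnfaip3 and Il10. They are also the 2 whose groups did not overlap, where 10% of all genes were free of overlap and higher in KO. Tnfaip3, the gene of the feedback inhibitor A20, stood at 55.8, 37.9 and 46.5 CPM in KO and at 29.7, 26.6 and 28.1 CPM in WT. The WT libraries lay close together below every KO library. Its log2 fold change was 0.73 (standard error 0.22, 95% interval 0.25 to 1.22, edgeR adjusted p = 0.271), and it ran from 0.579 to 0.869 over 16 alternatives without passing. Nfkbia, the gene of the inhibitor IκBα, had a log2 fold change of 0.41 (standard error 0.27), and 0.076 without KO 1, whose level of 126 CPM stood above the other 5 libraries. Relb and Nfkb2, subunit genes of the alternative NF-κB pathway, had log2 fold changes of -0.11 (standard error 0.23) and -0.10 (standard error 0.32). Il10, a cytokine gene named after its values were seen, stood at 6.08, 2.05 and 1.43 CPM in KO (80, 29 and 20 counts). In WT it stood at 0.525, 1.37 and 1.25 CPM (2, 7 and 4 counts). KO 3 stood above WT 2 by less than the 0.195 CPM of a single count in WT 2. The log2 fold change of Il10 was 1.58 (standard error 0.70, edgeR adjusted p = 0.385).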
